A study of Mus musculus with 18 samples.

Results

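Helper and regulatory T cell lineage genes, a set of 9 genes fixed by name, were read from a table of 50584 genes that holds the RNA sequencing counts of the mouse choroid plexus, which lines the brain ventricles and secretes cerebrospinal fluid. The set holds the transcription factors Tbx21, Gata3, Foxp3 and Ikzf2, the receptor chain Il2ra, and the cytokines Ifng, Il17a, Il10 and Il4. All 9 were present in the table. Of these, 8 passed the filter on low counts and Il17a did not. The libraries came from MRL/lpr mice, which are homozygous for lpr, a mutation of the death receptor gene Fas, and serve as a model of systemic lupus, and from MRL/+ mice, the control strain of the same background. Each strain was sampled at 12 and at 16 weeks of age, with 6 MRL/lpr and 3 MRL/+ libraries per age, and no agent was given to any group. The lpr mutation is carried in every cell of the animal, so it is not limited to T cells. The sources used here give neither the sex of the mice nor whether animals were pooled. As no label ties each library to its own animal, a p-value measures only how far these samples spread, which may be technical.

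CD4 helper T cells take on different programmes after activation. T helper 1 (Th1) cells are set by the transcription factor T-bet, the product of Tbx21, and secrete interferon gamma. T helper 2 (Th2) cells are set by GATA3 and secrete interleukin 4, and T helper 17 cells secrete interleukin 17A. Regulatory T cells are set by FOXP3, carry the high-affinity interleukin 2 receptor chain CD25 (Il2ra) and often the Ikaros family factor Helios (Ikzf2), and can secrete interleukin 10. None of these genes is unique to 1 lineage: natural killer cells also use T-bet and interferon gamma, and many B cells and macrophages can make interleukin 10. RNA of a whole tissue was sequenced, so fewer cells of a type and less RNA per cell cannot be told apart.

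The libraries held 11164284 to 14602253 counts. The 16 markers of choroid plexus epithelium summed to between 159548 and 319563 counts per 1000000 (CPM) in the 18 libraries, so the labelled tissue was present in all of them. Fas is summed over the whole gene, so its count cannot check the strain labels. It was 2.84 ± 1.58 CPM in MRL/lpr against 1.33 ± 0.236 in MRL/+ at 12 weeks, and 3.01 ± 1.31 against 2.24 ± 0.353 at 16 weeks. Neither difference passed (edgeR adjusted p = 0.182 and 0.528). Transcripts of neighbouring tissue stood out most in 4 libraries: the pineal gland in MRL/lpr 12 weeks replicates 1 and 4 (summed markers 125 and 98.7 CPM, 53.6 or less elsewhere), the cerebellum in MRL/+ 12 weeks replicate 1 (456 CPM), and skeletal muscle in MRL/+ 16 weeks replicate 1 (584 CPM, 4.58 or less elsewhere). Cerebellum markers were graded rather than confined to that library, with 276 CPM in MRL/lpr 16 weeks replicate 1, 261 in MRL/lpr 12 weeks replicate 2, 223 in MRL/+ 16 weeks replicate 1 and 79.3 to 210 in the others. Pituitary markers ran from 18.2 to 88.1 CPM. The 16 T cell markers summed to 42.0 to 340.3 CPM in the MRL/lpr libraries and to 2.15 to 3.31 CPM in the MRL/+ libraries. The sum of Cd3d, Cd3e and Cd3g, which encode the invariant CD3 chains of the T cell receptor, was 110 to 1074 counts per MRL/lpr library and 1 to 3 counts per MRL/+ library.

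Promoter sequences of 7 of the 9 genes were found in RefSeq (GRCm38.p6), with 9 start sites. The 250 bases before the start are printed for 3 genes that separated the strains, the Th1 pair Ifng and Tbx21 and the regulatory T cell factor Foxp3, 5′ to 3′ on the gene's own strand. Capitals mark the matches described after the sequences.
Ifng, chr10:118440796-118441045, plus strand: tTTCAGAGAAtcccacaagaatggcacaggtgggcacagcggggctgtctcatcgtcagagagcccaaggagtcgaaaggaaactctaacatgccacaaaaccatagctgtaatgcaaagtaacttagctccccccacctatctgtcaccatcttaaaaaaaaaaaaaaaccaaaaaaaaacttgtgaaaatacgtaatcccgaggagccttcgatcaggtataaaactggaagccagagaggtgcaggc
Tbx21, chr11:97115332-97115581, minus strand: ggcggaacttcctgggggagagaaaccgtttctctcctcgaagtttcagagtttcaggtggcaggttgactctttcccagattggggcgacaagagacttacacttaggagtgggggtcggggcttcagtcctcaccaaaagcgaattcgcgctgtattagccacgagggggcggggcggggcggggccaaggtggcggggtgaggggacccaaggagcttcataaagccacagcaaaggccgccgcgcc
Foxp3, second listed start, chrX:7580233-7580482, plus strand: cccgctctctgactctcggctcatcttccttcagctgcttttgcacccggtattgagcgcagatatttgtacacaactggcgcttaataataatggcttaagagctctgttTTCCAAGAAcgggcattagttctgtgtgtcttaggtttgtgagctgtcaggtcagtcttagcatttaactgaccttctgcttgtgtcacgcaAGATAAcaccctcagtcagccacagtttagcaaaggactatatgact
Both strands of the 9 windows were searched for 5 short motifs, and no match overlapped another. The STAT site TTCNNNGAA, bound by the factors that act below cytokine receptors, was found as TTCAGAGAA 249 bases before the Ifng start and as TTCCAAGAA 139 bases before the Foxp3 start. The GATA site AGATAA was found 47 bases before the same Foxp3 start. The AP-1 site TGANTCA was found 244 bases before the Il17a start. The T-box core GGTGTGA and the forkhead site GTAAACA were found in none of the 9 windows, and the Tbx21 window held none of the 5 motifs. Of 32851 RefSeq promoters of the same length, 7.02% held the STAT site, 9.99% the GATA site, 6.75% the AP-1 site, 3.33% the T-box core and 3.17% the forkhead site.

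The pair of Th1 genes was close to absent in MRL/+ and present in each of the 12 MRL/lpr libraries. Tbx21 (chromosome 11, 97098071 to 97115331, minus strand), the master regulator of Th1 cells, held 5, 13 and 46 counts in the lowest, median and highest MRL/lpr library at 12 weeks, and 2, 31 and 63 at 16 weeks. In MRL/+ there were 1, 0 and 0 counts in the 3 libraries of each age. No MRL/lpr library was as low as an MRL/+ library of the same age. At 12 weeks Tbx21 stood at 1.59 ± 1.27 CPM (SD, n = 6) in MRL/lpr against 0.0212 ± 0.0367 (n = 3) in MRL/+, a log2 fold change of 5.57 (SE 1.26, edgeR adjusted p = 0.0134). At 16 weeks the levels were 2.14 ± 1.40 and 0.0292 ± 0.0506 CPM, a log2 fold change of 5.80 (SE 1.27, edgeR adjusted p = 0.00804). Since MRL/+ held 1 count per age, the ratio of pooled counts is wide: 65.3 with an exact 95% interval of 11.5 to 2601 at 12 weeks and 77.6 with an interval of 13.7 to 3082 at 16 weeks. Ifng (chromosome 10, 118441046 to 118445892, plus strand), which encodes interferon gamma, held 2, 12.5 and 33 counts in the lowest, median and highest MRL/lpr library at 12 weeks, and 1, 20 and 51 at 16 weeks. It was at 0 in all 6 MRL/+ libraries, so the groups did not overlap at either age. Its level was 1.12 ± 1.03 CPM in MRL/lpr at 12 weeks, at least 15.4-fold higher than the floor of 3 counts over the pooled MRL/+ libraries (edgeR adjusted p = 0.0504, which did not pass). At 16 weeks it was 1.55 ± 1.36 CPM, at least 18.3-fold higher, which passed (edgeR adjusted p = 0.0305). Of the 1295 exon bases of Ifng, 336 are shared with an unnamed gene model on the same strand that held 10 counts over all libraries.

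Among the 4 genes of regulatory T cells, Foxp3, Il2ra and Il10 followed the same division between strains, and Ikzf2 did not. Foxp3 (chromosome X, 7579676 to 7595243, plus strand) held 5, 9.5 and 36 counts in the lowest, median and highest MRL/lpr library at 12 weeks, and 3, 15.5 and 56 at 16 weeks. In MRL/+ there were 5, 2 and 2 counts at 12 weeks, and 0 in each library at 16 weeks. In CPM no library of MRL/+ reached the lowest of MRL/lpr at either age, although at 12 weeks the highest MRL/+ level, 0.318 CPM, was next to the lowest MRL/lpr level, 0.329. At 12 weeks Foxp3 stood at 1.14 ± 0.933 CPM against 0.210 ± 0.0929 in MRL/+, a log2 fold change of 2.36 (SE 0.94) that did not pass (edgeR adjusted p = 0.157). At 16 weeks it stood at 1.51 ± 1.29 CPM, at least 18.6-fold above the MRL/+ floor, and passed (edgeR adjusted p = 0.00990). The Foxp3 exons, 3989 bases in all, share 590 bases with Ccdc22 and 373 with Gm36995 on the opposite strand, and 267 with Ppp1r3fos on the same strand, and the sources used here do not state the strand setting of the counting, so reads of these genes cannot be told apart there. The 3 neighbours held 14, 12 and 80 counts over all libraries.

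Il2ra (chromosome 2, 11642807 to 11693193, plus strand), the alpha chain that gives the interleukin 2 receptor its high affinity and that effector T cells also carry, held 7, 15 and 67 counts in the lowest, median and highest MRL/lpr library at 12 weeks, and 3, 31 and 106 at 16 weeks. In MRL/+ there were 0, 0 and 1 counts at the younger age, then 1, 2 and 1 at the older. The groups did not overlap in CPM at either age. Il2ra rose to 1.71 ± 1.57 CPM against 0.0261 ± 0.0453 at 12 weeks (log2 fold change 5.66, SE 1.42, edgeR adjusted p = 0.0234), with a ratio of pooled counts of 72.1 (exact 95% interval 12.7 to 2868). At 16 weeks it rose to 3.17 ± 2.89 against 0.121 ± 0.0643 CPM (log2 fold change 4.64, SE 1.19, edgeR adjusted p = 0.0184), with a ratio of 28.7 (11.1 to 106). Il10 (chromosome 1, 131019845 to 131024974, plus strand), a cytokine that restrains antigen-presenting cells, was the lowest of the 8 tested genes by mean CPM in MRL/lpr, with 1, 7.5 and 15 counts in the lowest, median and highest MRL/lpr library at 12 weeks and 1, 13 and 29 at 16 weeks. In MRL/+ there were 0, 0 and 1 counts at 12 weeks, and 0 in each library at 16 weeks. The groups did not overlap at either age, though at 12 weeks the lowest MRL/lpr and the highest MRL/+ library held 1 count each. At 12 weeks the ratio of pooled counts was 25.9 (exact 95% interval 4.45 to 1044) and the difference did not pass (log2 fold change 4.22, SE 1.25, edgeR adjusted p = 0.0574). At 16 weeks Il10 was at least 10.96-fold higher, at 0.899 ± 0.703 CPM, and passed (edgeR adjusted p = 0.0149).

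Ikzf2 (chromosome 1, 69531214 to 69687245, minus strand) was well above 0 in both strains. It held 39, 90 and 219 counts in the lowest, median and highest MRL/lpr library at 12 weeks and 65, 104.5 and 174 at 16 weeks, against 86, 58 and 75 counts in MRL/+ at 12 weeks and 64, 39 and 53 at 16 weeks. The ranges of the strains overlapped at both ages. At 12 weeks its level was 7.52 ± 3.93 CPM against 5.30 ± 0.685 in MRL/+ (log2 fold change 0.51, SE 0.36, edgeR adjusted p = 0.435), and at 16 weeks 8.76 ± 2.73 against 4.55 ± 0.948 (0.95, SE 0.37, edgeR adjusted p = 0.103). Neither difference passed in the edgeR fit. At 16 weeks it passed with limma voom (log2 fold change 0.92, adjusted p = 0.0109) and with libraries scaled to the choroid plexus epithelium genes (1.54, edgeR adjusted p = 0.0386), a scaling that moved the median of all genes at that age to 0.58. Replicate 6 of MRL/lpr at 12 weeks, at 14.96 CPM, stood apart from the 5 others of its group, which ran from 3.40 to 7.69.

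The pair of Th2 genes was measured in both strains at like levels. Gata3 (chromosome 2, 9857078 to 9890034, minus strand), the master regulator of Th2 cells that many non-immune cells also express, held 16, 26.5 and 48 counts in the lowest, median and highest MRL/lpr library at 12 weeks and 13, 36 and 60 at 16 weeks. In MRL/+ there were 15, 14 and 37 counts at the younger age, then 26, 17 and 20 at the older, and the strains overlapped at both ages. At 12 weeks its level was 2.16 ± 0.725 CPM against 1.65 ± 1.09 in MRL/+ (log2 fold change 0.39, SE 0.45, edgeR adjusted p = 0.644), and at 16 weeks 2.64 ± 1.29 against 1.84 ± 0.379 (0.52, SE 0.45, edgeR adjusted p = 0.444). Il4 (chromosome 11, 53602982 to 53618669, minus strand), the signature cytokine of Th2 cells, was the most even of the set. It held 27, 37 and 51 counts in the lowest, median and highest MRL/lpr library at 12 weeks and 32, 44 and 50 at 16 weeks, against 53, 49 and 41 in MRL/+ at 12 weeks and 35, 39 and 37 at 16 weeks. The mean level at 12 weeks was 2.81 ± 0.679 CPM against 3.47 ± 0.325 in MRL/+, and at 16 weeks 3.30 ± 0.541 against 3.27 ± 0.460. The log2 fold change between strains was -0.31 (SE 0.22, edgeR adjusted p = 0.450) at 12 weeks and 0.01 (SE 0.23, edgeR adjusted p = 0.980) at 16 weeks. Libraries with 1 to 3 counts of the Cd3 genes thus held as many Il4 counts as libraries with 110 to 1074.

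The Il4 counts come with a limit of the gene model. In GENCODE M21, whose annotation holds all 9 exons that the deposited table gives for Il4, 2 of them (53602982 to 53603160, 179 bases, and 53609580 to 53609644, 65 bases) belong to a transcript without a coding sequence. The first lies 1014 bases from the end of Kif3a (chromosome 11, 53567379 to 53601967, plus strand), a kinesin subunit of cilia that runs towards it on the opposite strand. Kif3a, looked at after the Il4 values were seen, was at 48.5 ± 4.19 CPM against 53.4 ± 3.81 in MRL/+ at 12 weeks and at 46.2 ± 4.61 against 54.2 ± 2.79 at 16 weeks. Neither difference passed (edgeR adjusted p = 0.443 and 0.131). There were 3.52 to 8.43 Il4 counts per 100 Kif3a counts in the MRL/lpr libraries and 5.38 to 7.22 in the MRL/+ libraries. The table does not say which exon a read fell on, and the part of the non-coding transcript or of Kif3a in the Il4 count was not tested.

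**Figure D1:**
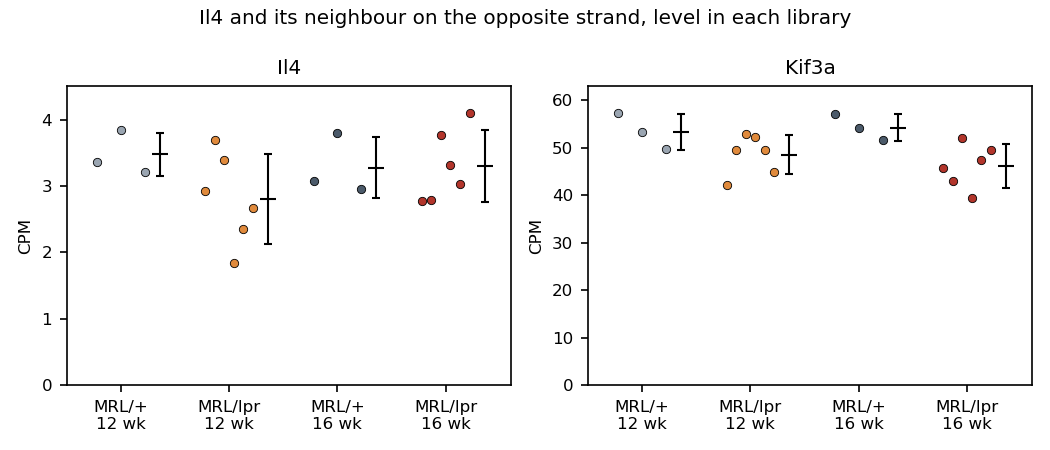
Level of Il4 (left) and of Kif3a, its neighbour on the opposite strand (right), in CPM on linear axes from 0. Each point is 1 library, and the bars give the mean ± SD of the 6 MRL/lpr or 3 MRL/+ libraries of an age. The 4 groups overlap for Il4, with means from 2.81 to 3.47 CPM.

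Il17a (chromosome 1, 20730905 to 20734496, plus strand), the cytokine that names T helper 17 cells, was too low to judge. It was at 0 in all 18 libraries and was removed by the filter on low counts, so no test was made. A count of 0 allows a level of up to 3 counts, which is 0.191 to 0.292 CPM per library, and up to 0.0190 CPM over the 12 MRL/lpr libraries pooled. The lowest MRL/lpr levels of Ifng and Il10 were 0.0819 CPM each, under the floor of any single library, so Il17a at such a level could have gone uncounted in one library.

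**Figure D2:**
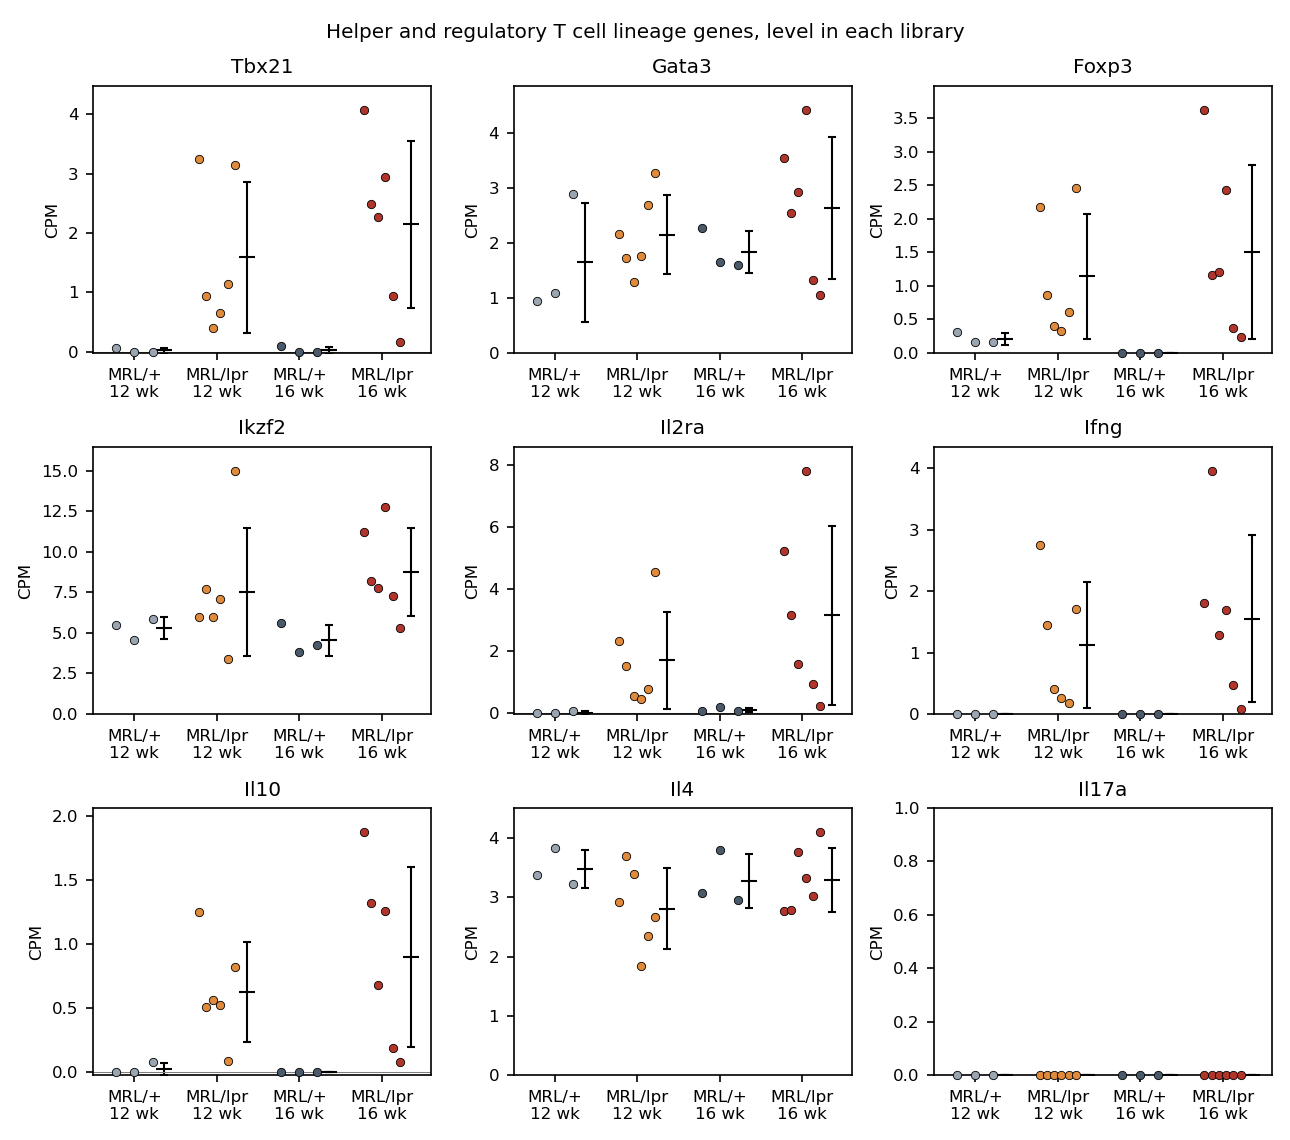
Level of the 9 genes in each library, in CPM with TMM-scaled library sizes, on linear axes that differ between panels. Points are libraries and bars are the mean ± SD of a group. Tbx21, Foxp3, Il2ra, Ifng and Il10 lie above every MRL/+ library of the same age in all 12 MRL/lpr libraries, the groups overlap for Gata3, Ikzf2 and Il4, and Il17a is at 0 throughout.

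Over the 8 genes tested, 2 rose and none fell at 12 weeks (Tbx21 and Il2ra), and 5 rose and none fell at 16 weeks (Tbx21, Foxp3, Il10, Il2ra and Ifng). Beside these, 5.01% of the 16598 genes tested rose and 1.34% fell in MRL/lpr at 12 weeks, and 8.49% rose and 2.64% fell at 16 weeks. Every MRL/lpr library lay above every MRL/+ library for 5 of the 8 genes at both ages, against 8.59% of all genes at 12 weeks and 9.91% at 16 weeks. These counts are a description only, since Tbx21, Ifng, Foxp3, Il2ra and Il10 passed the filter on low counts through their MRL/lpr libraries and so had to differ. With libraries scaled to the choroid plexus epithelium genes, the split of all calls at 12 weeks was 551 higher and 25 lower in place of 832 and 223, and at 16 weeks 3252 and 38 in place of 1410 and 439, while 2 of the 8 genes rose at 12 weeks and 6 at 16 weeks, Ikzf2 being the added one. The calls at 12 weeks rested on all 3 MRL/+ libraries: without any 1 of them neither gene passed, with adjusted p of 0.0663 to 0.0781 for Tbx21 and 0.0812 to 0.121 for Il2ra. At 16 weeks 2 of the 8 genes (Tbx21 and Foxp3) passed without MRL/+ replicate 1 or replicate 2, and none without replicate 3. Without the 4 libraries with transcripts of neighbouring tissue, which leaves 2 MRL/+ libraries per age, none of the 8 passed at either age, with adjusted p of 0.153 (Tbx21) and 0.217 (Il2ra) at 12 weeks and from 0.0654 (Tbx21) to 0.122 (Il2ra) among the 5 at 16 weeks. The log2 fold change of Il2ra without these libraries was 5.32 at 12 weeks and 4.52 at 16 weeks. Calls at 12 weeks that the main edgeR fit did not make were made by DESeq2 for Ifng (adjusted p = 0.000908) and Il10 (0.0221), and by voom for the same genes (0.0336 and 0.0176). Both genes also passed in edgeR without MRL/lpr 12 weeks replicate 5 (adjusted p = 0.0389 and 0.0356), and Ifng without replicate 4 (0.0456). Of 17 alternative runs at 12 weeks, Ifng passed in 4 and Il10 in 5. At 16 weeks Ifng did not pass without MRL/lpr replicate 1 (adjusted p = 0.0502), without the filter on low counts (0.0541) or in a fit of the 2 compared groups (0.0531), and in that fit Il10 did not pass either (0.0597).

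The genes differ in length, so their levels were compared per kilobase of exon. In MRL/lpr at 12 weeks Il4 was highest, at 2.29 ± 0.553 CPM per kilobase, followed by Ifng at 0.869 ± 0.792, Ikzf2 at 0.647 ± 0.339, Tbx21 at 0.638 ± 0.511, Gata3 at 0.543 ± 0.182, Il10 at 0.478 ± 0.295, Il2ra at 0.299 ± 0.276 and Foxp3 at 0.286 ± 0.234. Of neighbours in this order, only Il4 and Ifng lay further apart than their SDs. The rank of Il4 carries the limit of its gene model, as the part of the non-coding transcript or of Kif3a in its count was not tested. At 16 weeks the order was Il4 at 2.69 ± 0.441, Ifng at 1.20 ± 1.05, Tbx21 at 0.862 ± 0.564, Ikzf2 at 0.754 ± 0.235, Il10 at 0.686 ± 0.536, Gata3 at 0.664 ± 0.324, Il2ra at 0.554 ± 0.506 and Foxp3 at 0.378 ± 0.324, with the means of Il4 and Ifng apart by about the sum of their SDs. In MRL/+ the order was Il4, Ikzf2 and Gata3, at 2.83 ± 0.265, 0.456 ± 0.0590 and 0.415 ± 0.273 at 12 weeks and 2.67 ± 0.375, 0.392 ± 0.0816 and 0.464 ± 0.0953 at 16 weeks, where Gata3 was above Ikzf2 by less than their spread, and every other gene was at or under 0.0528. Within a library, the per-length level of Tbx21 was above that of Foxp3 in 6 of 6 MRL/lpr libraries at each age, by 1.60 to 3.21 times at 12 weeks and 1.07 to 4.01 times at 16 weeks. The lowest ratios rest on few counts. They were 5 of each gene in MRL/lpr 12 weeks replicate 3, and 2 of Tbx21 against 3 of Foxp3 in MRL/lpr 16 weeks replicate 6. Natural killer cells also use T-bet, so the ratio to Foxp3 is not limited to T cell lineages. Tbx21 was above Gata3 in 2 of 6 libraries at 12 weeks and 5 of 6 at 16 weeks. As Gata3 was also at 0.415 and 0.464 in MRL/+, almost without Cd3 counts, this ratio does not compare T cell lineages. The ratio of Ifng to Tbx21 ran from 0.296 to 2.96 at 12 weeks and from 0.854 to 3.06 at 16 weeks.

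Age made no difference that passed the test within either strain. Between 12 and 16 weeks in MRL/lpr, the largest log2 difference of the 8 genes was that of Il2ra, 0.89 (SE 0.66, edgeR adjusted p = 0.819), and the others ran from 0.22 to 0.54, with adjusted p of 0.823 to 0.892. None of the 8 passed with edgeR, DESeq2 or voom, and none had an unadjusted p under 0.05, against 0.0361% of all genes called in edgeR and 1117 with an unadjusted p under 0.05. The spread within MRL/lpr was wide at 16 weeks: replicates 5 and 6 were the lowest libraries of the group for each gene except Il4. In MRL/+ no gene of the table was called between the ages with edgeR (0%), with 2173 at an unadjusted p under 0.05, while DESeq2 called 12 and voom 1724 genes, none of them among the 8. Foxp3 held 9 counts over the 3 MRL/+ libraries at 12 weeks and 0 at 16 weeks, a difference with an unadjusted p of 0.0424 that did not pass (edgeR adjusted p = 0.379). The strain difference of Foxp3 was larger at 16 than at 12 weeks by 4.95 on the log2 scale (SE 2.14), but this interaction did not pass either (unadjusted p = 0.0350, edgeR adjusted p = 0.361). The interaction was called for none of the 8 genes and for 0% of all genes in edgeR, DESeq2 and voom, with 2286 genes, Foxp3 among them, at an unadjusted p under 0.05. A difference between the ages smaller than the spread of these libraries was not detectable.

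Relative to T cell transcripts, no gene of the set differed between the ages by more than the spread of the libraries. Counts of each gene per 100 counts of the Cd3 genes were compared in the 12 MRL/lpr libraries. Tbx21 had 4.38 ± 1.67 counts per 100 Cd3 counts at 12 weeks and 3.83 ± 1.45 at 16 weeks, Foxp3 3.02 ± 1.08 and 2.82 ± 1.54, Il2ra 4.59 ± 2.52 and 5.52 ± 3.97, Ifng 2.79 ± 1.53 and 2.51 ± 1.30, and Il10 2.01 ± 1.23 and 1.53 ± 0.763. Gata3 had 8.06 ± 4.48 and 6.22 ± 3.05, Ikzf2 27.3 ± 16.3 and 24.3 ± 17.9, and Il4 10.5 ± 4.81 and 12.6 ± 16.3. The ranges of the ages overlapped for all 8. In an exact two-sided permutation test of the log2 ratios, with 924 splits and a smallest possible p of 0.00216, the p-values ran from 0.481 (Gata3) to 0.827 (Ifng), and all 8 were 0.827 after Benjamini-Hochberg adjustment. The comparison was not made in MRL/+, where the Cd3 genes held 1 to 3 counts per library. Gata3, Ikzf2 and Il4 were counted there all the same, with means of 1.65, 5.30 and 3.47 CPM at 12 weeks. For these genes the ratio to Cd3 is therefore not a level in T cells. The highest ratio of Il4, 45.5, and of Ikzf2, 59.1, at 16 weeks were those of replicate 6, the library with the fewest Cd3 counts.

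**Figure D3:**
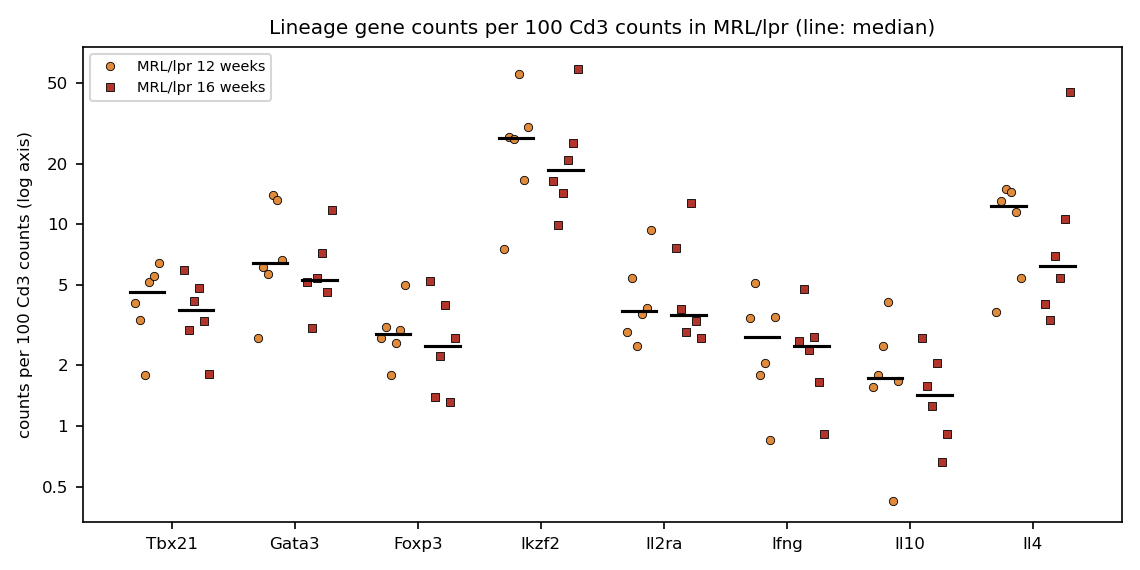
Counts of each gene per 100 summed counts of Cd3d, Cd3e and Cd3g in the 6 MRL/lpr libraries of 12 weeks (circles) and of 16 weeks (squares), on a log axis. Short lines are medians. The ages overlap for every gene, with medians of 4.61 and 3.74 for Tbx21 and 2.85 and 2.48 for Foxp3.

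In MRL/lpr, for each age on its own, the genes were set against the summed Cd3 level, as log2 CPM. At 12 weeks Foxp3 and Ifng correlated with the Cd3 genes after adjustment over the 16 relations computed, with Pearson's r of 0.93 (exact permutation p = 0.00833, adjusted p = 0.0370) and 0.89 (exact permutation p = 0.0111, adjusted p = 0.0370), and Spearman's rho of 0.89 and 0.94 (exact permutation p = 0.0333 and 0.0167, adjusted p = 0.107 and 0.0889). Tbx21 and Il2ra had r of 0.85 each (adjusted exact permutation p = 0.06 for both), Il10 0.64, Il4 0.43, Gata3 0.40 and Ikzf2 0.33. At 16 weeks r was 0.98 for Ifng (exact permutation p = 0.00139, adjusted p = 0.0222), 0.97 for Tbx21 (adjusted exact permutation p = 0.0370), 0.93 for Il10 (0.0333), 0.89 for Il2ra (0.0370), 0.85 for Gata3, 0.83 for Foxp3, 0.78 for Ikzf2 and -0.70 for Il4 (adjusted exact permutation p of 0.05, 0.05, 0.0909 and 0.139, none under 0.05). At 16 weeks Spearman's coefficient was 1 for Ifng (exact permutation p = 0.00278, adjusted p = 0.0444), the order of the 6 libraries being the same for Ifng and for the Cd3 genes, and 0.83 for Tbx21, 0.94 for Il10 and 0.77 for Il2ra, with adjusted p of 0.0889 to 0.183. The libraries farthest from the median at 16 weeks were the low replicates 5 and 6. Without them r stayed at 0.96 for Ifng and was 0.64 for Il10, 0.24 for Il2ra, 0.18 for Tbx21, -0.05 for Foxp3, -0.06 for Ikzf2, -0.41 for Gata3 and -0.90 for Il4. Of the relations that had passed, those of Tbx21 and Il2ra thus rest on those 2 libraries. At 12 weeks r without the 2 farthest libraries was 0.97 for Il2ra, 0.96 for Ikzf2, 0.95 for Foxp3, 0.84 for Ifng, 0.82 for Tbx21, 0.72 for Il10, 0.56 for Gata3 and -0.06 for Il4. The values of Ikzf2 and Il4 at that age thus also turn on 2 libraries.

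**Figure D4:**
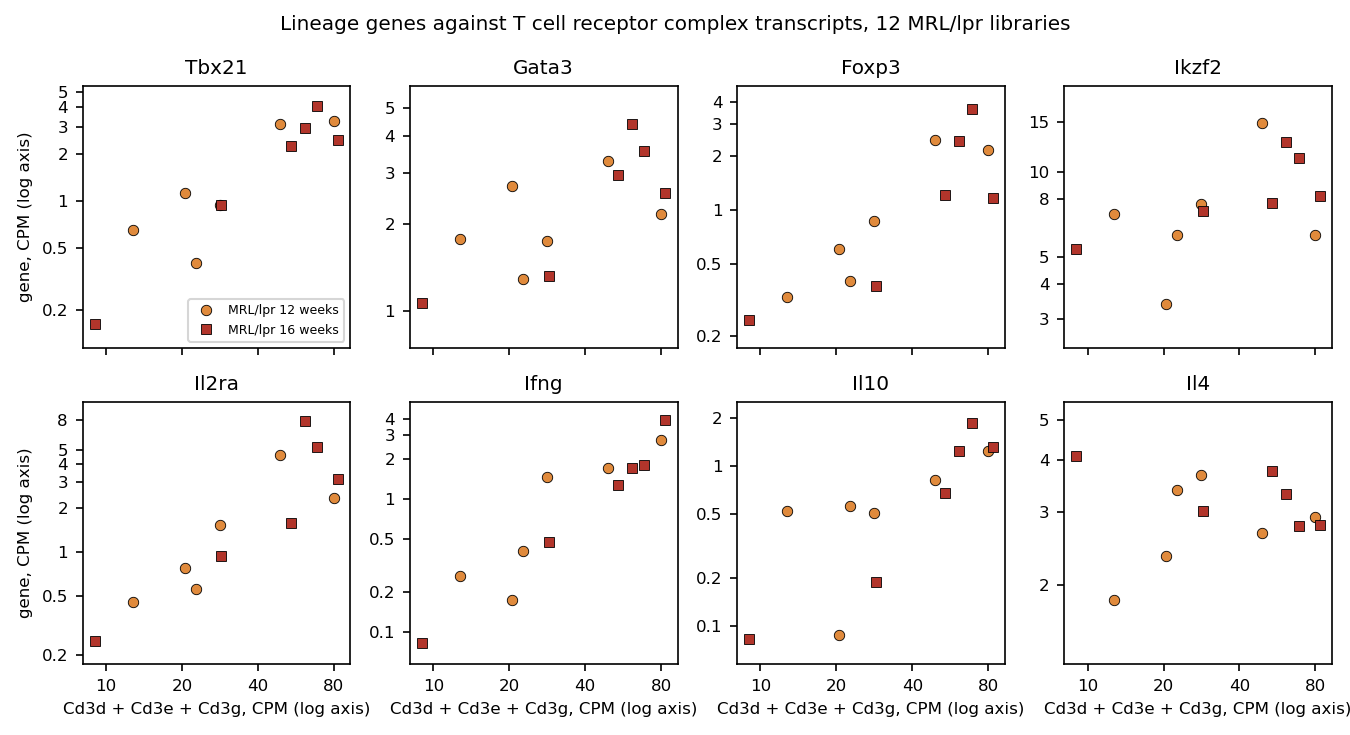
Level of 8 genes against the summed level of Cd3d, Cd3e and Cd3g in the 12 MRL/lpr libraries, in CPM on log axes, with circles for 12 weeks and squares for 16 weeks. The points of Ifng, Tbx21, Foxp3 and Il2ra lie along a rising line over both ages, while those of Il4 do not rise.

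The genes were also compared with each other across the 12 MRL/lpr libraries, as a description. Spearman's rho was highest at 0.94 for Foxp3 and Il2ra, 0.92 for Tbx21 and Foxp3, 0.90 for Tbx21 and Il2ra and 0.87 for Ifng and Il10. It ran from -0.38 to -0.11 for Il4 with each of the 7 others. Pairs without Il4 went down to 0.53 for Gata3 and Ifng, 0.64 for Tbx21 and Ikzf2 and 0.69 for Gata3 and Il10. The genes nearest to each in rank over the same 12 libraries are given as a description, since all share the same libraries and their depth. For Tbx21 they were Bcl3 (rho 0.99), Naip2 and Arpc1b (0.98 each), and for Foxp3 Ncf1 (0.99), Vav1 and Myo1g (0.98 each). For Il2ra they were Edem1 (1), Cd28, the T cell costimulatory receptor, and Samhd1 (0.99 each). For Ifng they were Fgl2, Ifi44l and Akr1c13 (0.97 each), and for Il10 Uba7 and Phf11a (0.97 each) and Mzb1 (0.96), a chaperone of antibody-secreting cells. Gata3 was nearest to Pde8a (0.98), Arid3a and Hmox1 (0.97 each), Ikzf2 to Arid4a, Itga4 (0.98 each) and Khnyn (0.97), and Il4 to Arhgap20 (0.91), Zfp697 (0.88) and Zfyve9 (0.83).

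Other genes of each pathway were read from lists. Each count is to be read beside the 5.01% of all tested genes that rose at 12 weeks and the 8.49% that rose at 16 weeks. List genes at or near 0 counts in MRL/+, such as Cxcr3, Il18r1, Il18rap, Ctla4 and Izumo1r, passed the filter on low counts through MRL/lpr and so had to differ, like the 5 genes of the set. The list counts are a description for the same reason. Of 18 partners of the Th1 programme, 14 were tested, and 11 rose and none fell in MRL/lpr at 12 weeks. Again 11 rose and none fell at 16 weeks. Their median log2 fold change was 3.79 and 5.18, or 3.68 and 4.47 with the genes at 0 in MRL/+ set to their bound, where the median of all genes was -0.01 and 0.03. Cxcr3, the chemokine receptor of Th1 cells, held 418 counts at 12 weeks against 0 in MRL/+, at least 72.3-fold higher (edgeR adjusted p = 0.00549). Il18r1, a chain of the interleukin 18 receptor, rose to 3.90 ± 3.10 CPM against 1 count in MRL/+ at 12 weeks (ratio of pooled counts 163, exact 95% interval 29.1 to 6473, edgeR adjusted p = 0.00347) and to 4.62 ± 2.77 CPM, again against 1 count, at 16 weeks (ratio 164, 29.3 to 6510, edgeR adjusted p = 0.00235). Il18rap, its second chain, rose at 12 weeks by a ratio of 77.3 (13.7 to 3072, 1 count in MRL/+, edgeR adjusted p = 0.00862). Il27ra, a receptor of the interleukin 12 family, rose at 16 weeks to 8.05 ± 5.45 CPM against 0.174 ± 0.0779 (log2 fold change 5.45, SE 0.94, edgeR adjusted p = 0.00225). Il2, Il12a, Il12rb2 and Il27 were removed by the filter on low counts. Targets of interferon gamma rose in 16 of 18 at both ages and none fell, with medians of 3.57 and 4.29. Cxcl9, the chemokine ligand of CXCR3, rose to 121 ± 84.1 CPM against 0.372 ± 0.293 at 12 weeks (8.33, SE 1.04, edgeR adjusted p = 0.000624) and to 167 ± 113 against 0.285 ± 0.173 at 16 weeks (9.12, SE 1.10, edgeR adjusted p = 0.000414). The guanosine triphosphatases Iigp1, Gbp4 and Gbp2 rose by 6.83, 5.50 and 4.55 on the log2 scale at 12 weeks and by 7.42, 6.56 and 4.83 at 16 weeks. Many of these targets also answer type I interferon.

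Partners of regulatory T cells rose in 8 of 20 at 12 weeks and 13 of 20 at 16 weeks, with none lower and medians of 2.12 and 2.83. Ctla4, the inhibitory receptor of regulatory and activated T cells, held 375 counts at 12 weeks against 0 in MRL/+, at least 64.8-fold higher (edgeR adjusted p = 0.00446), and 415 and 0 at 16 weeks, at least 60.6-fold higher (edgeR adjusted p = 0.00317). Icos, a costimulatory receptor, rose to 4.29 ± 3.76 CPM against 2 counts in MRL/+ at 12 weeks (ratio of pooled counts 90.0, exact 95% interval 24.7 to 746, edgeR adjusted p = 0.00516). Il2rg, the common gamma chain that pairs with IL2RA, rose to 8.85 ± 7.53 against 0.0996 ± 0.0502 at 12 weeks (log2 fold change 6.37, SE 1.29, edgeR adjusted p = 0.00726) and to 11.9 ± 10.4 against 2 counts at 16 weeks (ratio 215, 59.4 to 1780, edgeR adjusted p = 0.00338). Izumo1r, a surface protein of the folate receptor family that marks regulatory T cells, was at least 43.2-fold higher at 12 weeks (edgeR adjusted p = 0.00891). Tnfrsf18, the receptor GITR, was present in both strains, and rose at 16 weeks to 4.13 ± 1.11 against 0.672 ± 0.202 CPM (2.61, SE 0.42, edgeR adjusted p = 0.00166). Stat5a, Stat5b and Nrp1, which most tissues express, had log2 fold changes of 0.03, -0.11 and -0.27 at 12 weeks and 0.21, 0.13 and 0.31 at 16 weeks and did not pass. Of 10 receptor genes for the cytokines of the set and for interleukin 2, Il2rg, Il2rb and Il10ra rose at 12 weeks and Il4ra with them at 16 weeks, none fell, and the medians over the 10 were 0.59 and 0.75. Il10ra, the ligand-binding chain for interleukin 10, rose to 15.5 ± 10.4 CPM against 1.53 ± 0.663 at 12 weeks (3.33, SE 0.74, edgeR adjusted p = 0.0120) and to 22.7 ± 14.6 against 1.13 ± 0.296 at 16 weeks (4.33, SE 0.80, edgeR adjusted p = 0.00293).

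Of 13 Th2 partners, 6 were tested, and none passed at 12 weeks and 2 at 16 weeks, with medians of 0.63 and 0.66. The count of 0 at 12 weeks is that of edgeR, where none of the list fell. DESeq2 called 3 genes higher and none lower, and voom 3 higher and 1 lower. Il4ra, the receptor chain shared by interleukins 4 and 13, rose at 16 weeks to 16.2 ± 9.16 CPM against 1.38 ± 0.322 (log2 fold change 3.54, SE 0.73, edgeR adjusted p = 0.00554). Ccr8, a chemokine receptor of Th2 and regulatory T cells, held 65 counts at 16 weeks against 0 in MRL/+, at least 9.50-fold higher (edgeR adjusted p = 0.0469). Il33, an alarmin that acts on Th2 cells, stood at 11.3 against 5.39 CPM at 12 weeks and 11.6 against 5.80 at 16 weeks and did not pass (edgeR adjusted p = 0.0574 and 0.0539). Of the other Th2 cytokines, Il5 and Il13 held 3 and 8 counts over the 6 MRL/lpr libraries at 12 weeks and 0 and 5 at 16 weeks, and Il9 was at 0 in all 18 libraries. Of 10 targets of interleukins 4 and 13, 5 were tested and 2 rose at both ages: Clec10a, a macrophage lectin, with log2 fold changes of 3.39 and 3.17, and Ccl22, a chemokine of dendritic cells, by a ratio of pooled counts of 47.7 at 12 weeks (exact 95% interval 13.02 to 397) and at least 25.3-fold at 16 weeks, where MRL/+ was at 0. Arg1 had a ratio of 12.1 (4.01 to 60.0, 3 counts in MRL/+) at 16 weeks and did not pass (edgeR adjusted p = 0.126).

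Of 16 T helper 17 partners, 12 were tested, and 3 rose at 12 weeks and 5 at 16 weeks, with none lower and medians of 0.60 and 0.99. At 12 weeks voom called 5 higher and 1 lower, DESeq2 5 higher, and 1 was higher both with scaling to the epithelium genes and without the filter on low counts. In edgeR 1 gene was lower beside 3 higher without MRL/lpr replicate 2 or replicate 6. At 16 weeks voom called 8 higher, the fit without the filter 3, and the scaling to epithelium genes 7 with a list median of 1.58, where that of all genes was 0.58. Irf4, which B cells and plasma cells also express, rose to 7.06 ± 5.13 CPM against 0.116 ± 0.0648 at 12 weeks (log2 fold change 5.77, SE 1.10, edgeR adjusted p = 0.00524) and to 14.0 ± 11.2 against 0.121 ± 0.0643 at 16 weeks (6.79, SE 1.15, edgeR adjusted p = 0.00209). Batf, an AP-1 factor of several T cell and B cell programmes, had log2 fold changes of 3.89 and 3.43 (edgeR adjusted p = 0.0258 and 0.0240), and Il21 one of 1.03 at 12 weeks (edgeR adjusted p = 0.0365). At 16 weeks Il21 did not pass (0.65, edgeR adjusted p = 0.132). In MRL/+, almost without Cd3 counts, Il21 still stood at 1.81 CPM at 12 weeks and 2.40 CPM at 16 weeks. Il17f was at 0 in all 18 libraries like Il17a, and Il23r held 8 and 10 counts over the MRL/lpr libraries of 12 and 16 weeks. Of 10 targets of interleukin 17, 6 were tested. Lcn2, the siderophore-binding protein lipocalin 2, rose at both ages (3.04, SE 0.71, edgeR adjusted p = 0.0155, and 2.45, SE 0.66, edgeR adjusted p = 0.0239), and Nfkbiz (1.23) and Zc3h12a (1.25) at 16 weeks.

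The number of list genes that passed depended on the 3 MRL/+ libraries. Leaving out MRL/+ replicate 1, 2 or 3 at 12 weeks left 2, 7 and 3 Th1 partners, 2, 4 and 4 partners of regulatory T cells, 7, 10 and 7 interferon gamma targets, 1, 1 and 2 T helper 17 partners, 0, 1 and 1 cytokine receptors and 0, 0 and 1 targets of interleukin 17. At 16 weeks the same left 9, 9 and 7 Th1 partners, 7, 8 and 7 partners of regulatory T cells, 1, 1 and 1 T helper 17 partners, 1, 1 and 1 Th2 partners and 2, 0 and 0 targets of interleukin 17. Leaving out MRL/lpr 16 weeks replicate 1, 2, 3 or 4 left 1 Th2 partner each, leaving out replicate 1, 2 or 4 left 3, 3 and 2 T helper 17 partners, and leaving out replicate 1 or 4 left 1 target of interleukin 17 each. Without the 4 libraries with transcripts of neighbouring tissue, the Th1 partners, partners of regulatory T cells, interferon gamma targets and T helper 17 partners that passed were 0, 0, 1 and 0 at 12 weeks and 7, 5, 14 and 1 at 16 weeks, with no cytokine receptor at 12 weeks and 1 at 16 weeks, while their medians were 3.76, 2.21, 3.36 and 0.75 at 12 weeks and 5.24, 3.16, 4.22 and 1.06 at 16 weeks.

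**Figure D5:**
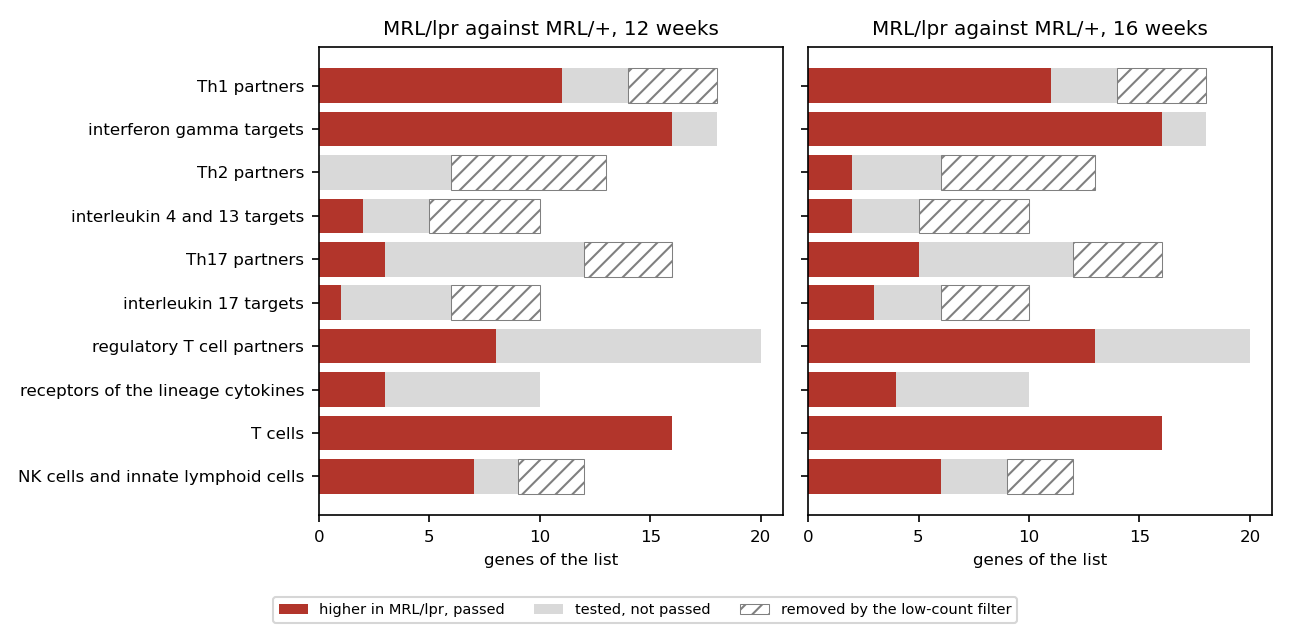
Genes of each list by outcome of the strain comparison at 12 weeks (left) and 16 weeks (right), as numbers of genes: higher in MRL/lpr at an edgeR adjusted p under 0.05 (red), tested and not passed (grey), and removed by the filter on low counts (hatched). No gene of these lists was lower. Th1 partners and interferon gamma targets passed in 11 and 16 genes at both ages, Th2 partners in 0 and 2.

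Markers of other cells that can carry these transcripts moved with the strain too. All 16 T cell markers rose at both ages, with Cd4 at 21.7 ± 16.6 CPM against 0.559 ± 0.205 at 16 weeks and Cd8a at 7.09 ± 4.12 CPM against 1 count. Of 12 markers of natural killer and innate lymphoid cells, 9 were tested, and 7 rose at 12 weeks and 6 at 16 weeks, with a summed level of 8.44 to 80.1 CPM in the MRL/lpr libraries and 1.10 to 11.6 in the MRL/+ libraries. The 11.6 CPM came from MRL/+ at 12 weeks, where the median sum was 1.88 CPM. Most of it was Eomes, which ran from 3 to 169 counts in that group, up to 10.7 CPM. Several of the markers, such as Nkg7 and Gzmb, are also made by cytotoxic T cells. Ncr1, the defining natural killer cell receptor, held 30 and 39 counts over the MRL/lpr libraries of 12 and 16 weeks and did not pass, and Klrb1c, another of their receptors, held 7 and 10 and was not tested. B cell markers rose in 7 of 7 and plasma cell markers in 5 of 7 at both ages, and macrophage markers in 7 and 9 of 10. Of 8 markers of mast cells and basophils, which store or secrete interleukin 4, Kit alone was tested and did not pass, and the basophil protease Mcpt8 held 1 count in all, in MRL/lpr at 16 weeks. Without MRL/+ replicate 1, 2 or 3 at 12 weeks, 3, 4 and 3 natural killer, 2, 4 and 4 B cell and 3, 3 and 3 plasma cell markers passed, and without the 4 libraries with transcripts of neighbouring tissue 4 of the 16 T cell markers, 1 plasma cell marker and none of the other lists passed at that age. The part of cytotoxic (Cd8a-expressing) T cells, natural killer cells, B cells and macrophages in the levels of Tbx21, Ifng and Il10 was not tested.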

How the data were processed

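The deposited table holds raw read counts per gene, with summed exon length, made by the authors from TruSeq RNA libraries of flash-frozen tissue run over 2 lanes, per the labels' protocols. Per the submitters' processing notes, STAR 2.5.3a, featureCounts 1.26.0 and GRCm38 were used. The sources used here do not give the strand setting, annotation release or treatment of reads with several positions. Columns were matched to samples by title.

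From the counts, genes were filtered with edgeR's filterByExpr by group (minimum count 10), which kept 16598 of 50584, and scaled by TMM. The 4 groups were fitted together with edgeR 4.0.16 (R 4.3.3, robust quasi-likelihood test), and p-values were adjusted by Benjamini-Hochberg over all genes tested, with 0.05 as the threshold. The SE is the log2 fold change divided by the square root of F. The comparisons were MRL/lpr against MRL/+ at each age, the ages within each strain, and their interaction. Correlations used log2(CPM + 0.1) for the genes and log2(CPM + 1) for the Cd3 sum, with exact permutation tests (SciPy 1.17.1). Fold bounds set a group at 0 to 3 counts over its pooled libraries. Reads carry no molecular identifiers, so the Clopper-Pearson intervals and the floors hold for counting error alone. Alternatives were RLE scaling, scaling to choroid plexus epithelium genes, no filter, DESeq2 1.42.0, limma 3.58.1 voom, a fit of the compared groups alone, a replicate block, and leaving out libraries. The edgeR step was tested on simulated data.

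The 9 genes, the lists and the libraries with transcripts of neighbouring tissue were chosen with earlier results of these data known. Beside the 9 genes, up to 4 genes of each list with the smallest p in a strain comparison were named, and for each tested gene the 3 nearest named genes by Spearman's rho. Kif3a, Stat5a, Stat5b, Nrp1, Il2, Il12a, Il12rb2, Il27, Il5, Il13, Il9, Il17f, Il23r, Cd4, Cd8a, Nkg7, Gzmb, Eomes, Ncr1, Klrb1c and Mcpt8 may fall outside this rule and were chosen after their values were seen. Some genes of the lists are counted but not reported by name here. Replicate libraries of a group differed by more than counting noise, with a chi-square per gene of at least 6.10.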

Additional observations from a re-analysis of the deposited data

Results flagged for a closer look

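Ikzf2 in MRL/lpr at 12 weeks had 1 library far from the rest: replicate 6 stood at 15 CPM, and its gap to the next library was 0.629 of the range of the group, just above the limit of Dixon's test at 95% for 6 libraries. Of the 16 sets of 6 MRL/lpr libraries examined, this was the one past that value. Chance alone puts about 1 in 20 sets past it, so 1 of 16 is close to that rate. The cause was not tested.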

How the results depend on the processing

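Of the 8 tested genes, 2 passed between the strains at 12 weeks. DESeq2 passed 4, voom 4, and the fit without the 4 libraries with transcripts of neighbouring tissue 0, and leaving out 1 library at a time gave 0 to 4. At 16 weeks 5 passed, against 3 in a fit of the 2 compared groups alone, 0 without the 4 libraries, and 0 to 5 with 1 library left out. Fits without these libraries also have fewer samples, and the part of sample number and of neighbouring tissue in these counts was not tested. No log2 fold change of a gene that passed changed sign in any alternative run. This is a description only, since these genes passed the filter on low counts through MRL/lpr, which left their sign all but fixed. Counts of 0 between ages and for the interaction held under every alternative run. Over all genes, 1055 passed at 12 weeks and 1849 at 16 weeks, against 576 and 3290 with scaling to choroid plexus epithelium genes, 1656 and 2431 with DESeq2, 3515 and 4864 with voom, and 34 and 498 without the 4 libraries. Between the ages in MRL/lpr 6 passed, against 84 with DESeq2, 21 with voom, 0 without the 4 libraries and 1 with the block.

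Replicate numbers did not pair the samples, with correlations of same-numbered libraries from -0.619 to 0.45. With the replicate number as a block, 2 genes passed at 12 weeks and 5 at 16 weeks: at 12 weeks Il10 passed (4.66, edgeR adjusted p = 0.0394) and Il2ra did not (5.52, adjusted p = 0.0563). Among the lists at 12 weeks, DESeq2 called 5 T helper 17 partners, 13 partners of regulatory T cells and 4 targets of interleukins 4 and 13. With 0 to 5 counts per MRL/+ library for 5 of the genes, depth limits how precisely their folds are known.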
